A study of Mus musculus with 6 samples.

Results

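Repeat-like piRNAs are described here: sequences of 25 to 31 nt that matched, letter for letter and on either strand, the transcripts of 20 or more genes, and matched no annotated small RNA. The transcripts and the small RNA classes were those of GENCODE M21 (mouse build GRCm38). Of 8037421 distinct sequences of this length without a small RNA match, here called piRNA-like, 32463 met the rule, which was 0.404% of them. They matched a median of 34 genes each and at most 1231. In untreated wild type cells they held 1.57% of the reads of 18 to 35 nt (95% exact binomial interval 1.57 to 1.58), which was 3.74% of the piRNA-like reads. Most were rare: 18056 were seen in 1 library alone, 7559 had at least 10 reads over the 6 libraries, and 57 were seen in every library.

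Small RNAs were sequenced from spermatogonial stem cells (the germ cells of the testis that renew themselves) in culture, with 1 library for each of 6 groups. The groups were untreated wild type, wild type whose RNA was treated with NaIO4, the Hen1 knockout (mhen1-/-) without treatment, its RNA after NaIO4, the untreated Mili knockout (mili-/-), and RNA from wild type cells bound by an antibody to MILI (MABE363, Millipore). All cells derive from 1 male of 15 days that carried actin-EGFP and was an F1 of C57BL/6 and DBA2, although the strain field of every sample names C57BL/6 alone, and they grew on fibroblast feeders. Each knockout was made by transient Cas9 and guide RNA transfection and is a picked single colony checked by Sanger sequencing. The NaIO4 stock was 200 mM, and spike-ins were added to every library except the immunoprecipitate; none was identified here, so values are shares of a library and not amounts. With 1 library a group no test was possible: intervals come from read counts and cover counting error only, since PCR copies cannot be told from separate molecules. Reads of 18 to 35 nt numbered 7322408, 10282416, 11702714, 2604390, 4808088 and 25240941 in the order above, and microRNA reads made up 19.2%, 1.47%, 7.33%, 2.57%, 34% and 0.847% of them. The files hold small RNAs, so the messenger RNAs of the targeted genes were not read.

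piRNAs guide Piwi proteins to transposon RNA in the germ line. MILI (gene Piwil2) cuts transposon transcripts opposite the tenth base of its guide, so that a sense and an antisense piRNA made in this cycle share their first bases over a fixed overlap, and a guide that begins with U leaves a product with A at the tenth base. Hen1 (gene Henmt1) methylates piRNAs at their 3′ end. NaIO4 oxidises unmethylated 3′ ends, which then cannot be ligated into a library, and leaves methylated ones. LINE-1 (L1) is an active mouse retrotransposon that codes for a protein with reverse transcriptase, IAP is an endogenous retrovirus, and B1 and B2 are short elements that RNA polymerase III transcribes from an internal promoter with an A box and a B box. B1 derives from 7SL RNA and B2 from a tRNA.

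The sequences that led the B2 and B1 reads are shown first because they carry the B box. Capitals mark the word GTTCAANNC or GTTCGANNC, the core of the B box, and bases are written as T for U. The 4 B2 members had the most reads of all members in the immunoprecipitate, and the B1 members the most B1 reads of untreated wild type.
B2 sense A: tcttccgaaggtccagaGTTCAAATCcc
B2 sense B: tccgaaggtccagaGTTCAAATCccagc
B2 sense C: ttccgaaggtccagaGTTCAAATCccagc
B2 sense D: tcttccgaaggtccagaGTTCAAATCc
B1 sense A: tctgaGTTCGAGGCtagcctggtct
B1 sense B: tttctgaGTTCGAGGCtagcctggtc

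For L1 and IAP, sense and antisense members whose first 10 bases pair with each other are shown, because the overlap of both strands is counted from such pairs. Capitals mark those 10 bases. In both pairs the antisense member begins with T, so by pairing the sense member has A at base 10. In the IAP pair the sense member also begins with T and the antisense one has A at base 10, so the pattern runs both ways there.
L1 pair, sense: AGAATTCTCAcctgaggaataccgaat
L1 pair, antisense: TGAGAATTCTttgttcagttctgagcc
IAP pair, sense: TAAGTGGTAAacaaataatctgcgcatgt
IAP pair, antisense: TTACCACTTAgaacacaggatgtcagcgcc

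B2 and L1 supplied most of these reads. Members were joined to families by aligning them, with up to 4 edits, to repeat sequences assembled from the transcripts themselves. B2 in untreated wild type held 48.3% of the member reads with 3349 sequences, and L1 held 39.8% with 16601. B1 held 2.53% (1441 sequences) and IAP 2.38% (1458). Ribosomal protein genes and Hnrnpa3, which have many pseudogenes, held 1.66% (1868), and zinc finger genes, whose repeated domains share a linker, held 0.392% (422). Repeats that could not be named held 2.92% (2340), simple repeats 0.0711% (355), and 4629 sequences with 2.00% joined no family. The immunoprecipitate had the highest share of B2 among the 6 libraries, at 80.2% of member reads against 11.3% for L1. L1 came before B2 in 2 libraries, the NaIO4-treated mhen1-/- one, with 48.3% against 42.2%, and the mili-/- one, with L1 at 50.8% and B2 at 35% of 1751 member reads.

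Which strand of the element the reads came from set the families apart. In untreated wild type, 99.5% of B2 reads were sense to the element, as were 83.4% of B1 reads. L1 reads were 65.4% sense, and IAP reads were 30.5% sense and so mostly antisense. The reads of ribosomal protein and Hnrnpa3 genes were 99.3% sense and those of zinc finger genes 99.6%. Strand against the genes that hold the copies was a different measure, since repeats lie in either direction: 28833 of the 32463 members (88.8%) matched some genes in the sense and others in the antisense direction. B2 sense A, for one, matched 89 genes, 47 in the sense and 42 in the antisense direction. A read of this kind cannot be given to one gene.

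B2 piRNAs began at few places. Positions are counted from 1 at the start of an assembled B2 sequence of 202 nt. Among B2 sense reads of untreated wild type, 5′ ends at bases 46, 48 and 49 held 45.0%, 18.8% and 15.4%, together 79.2%, though 117 positions had at least 1 read. The same ends held 79.3% in wild type with NaIO4, 72.0% and 72.8% in mhen1-/- cells before and after NaIO4, and 85.4% in the immunoprecipitate. In the Mili knockout they held 8.20% of 561 reads. These 5′ ends lie 17, 15 and 14 bases before the B box, which spans bases 63 to 71, so the piRNAs from them cover it. A B box word stood in 84.7% of B2 reads and 42.5% of B1 reads of untreated wild type and in no L1 or IAP read. The word also stood in 1.52% of the reads of piRNA-like sequences under 20 genes, and on the opposite strand in 0.117% of B2 reads. As shares of distinct sequences the figures were 2.06% of the members and 0.674% of the rest. A match to these letters is a description of the sequence, and these reads overlap and share 5′ ends, so they are not independent observations.

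The leading member, B2 sense A, had 11828 reads in untreated wild type, 28368 in its NaIO4 library, 9026 in untreated mhen1-/- cells, 588 in their NaIO4 library, 1 in mili-/- cells and 184820 in the immunoprecipitate. The immunoprecipitate and the wild type libraries were high, and the Mili knockout was near 0. Its share was 1.71-fold higher (1.67 to 1.74) with NaIO4 in wild type and 3.42-fold lower (3.14 to 3.71) with NaIO4 in the Hen1 knockout. B2 sense D is the same RNA without its last base. It had 5075 reads in untreated wild type, 12653 in its NaIO4 library, 10572 in untreated mhen1-/- cells, 684 in their NaIO4 library, 4 in mili-/- cells and 55540 in the immunoprecipitate, and it outnumbered the longer form in the Hen1 knockout, while the longer form led in wild type and the immunoprecipitate. Relative to untreated wild type, B2 sense A was 2.09-fold lower (2.04 to 2.15) and B2 sense D 1.30-fold higher (1.26 to 1.35) in untreated mhen1-/- cells. B2 sense B had 6092, 14407, 6590, 364, 2 and 110224 reads and B2 sense C 3404, 7825, 1776, 146, 0 and 60409, in the same order of libraries. Both were higher in the immunoprecipitate than in untreated wild type, B by 5.25-fold and C by 5.15-fold, beside 4.53-fold for A. The fifth member by immunoprecipitate reads was a B2 sense RNA of 31 nt from the same 5′ end as A, with 1476, 2773, 521, 31, 0 and 27463 reads.

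B2 piRNAs were shorter in the Hen1 knockout. The commonest length of B2 members was 28 nt in untreated wild type, with 42.7% of reads, and 47.2% of reads in the immunoprecipitate had it. In the untreated Hen1 knockout lengths of 26, 27 and 28 nt held 25.6%, 27% and 25.9%, and the mean was 27.1 nt against 27.9 nt. To read the 3′ ends below 25 nt as well, all reads of 18 to 35 nt that begin with the first 18 bases of B2 sense A, B and C were taken. Among those that matched the assembled B2 to their end, reads of 18 to 24 nt were 0.547%, 9.09% and 5.99% for A, B and C in untreated wild type. In the untreated Hen1 knockout they were 1.97%, 33.3% and 24.5%. Reads ending in 1 to 3 T that the assembled B2 does not hold were 2.21% (1.93 to 2.53) of the reads at the 5′ end of B in untreated wild type and 7.28% (6.92 to 7.65) in the untreated Hen1 knockout. With A in place of T the shares were 0.717% and 5.17%. At the 5′ end of A the T shares were 0.774% and 3.16%, and at that of C 2.36% and 4.79%. All 3 were higher in the Hen1 knockout; a genomic B2 copy that has the extra base would be counted too, and its part was not tested.

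Other members were shorter in the Hen1 knockout as well. L1 members had a mean length of 28.5 nt in untreated wild type and 27.8 nt in the untreated Hen1 knockout, IAP members 28.4 and 27.6 nt, and B1 members 27 and 26.7 nt. The piRNA-like sequences that match 1 gene went from 28 to 27 nt. In untreated wild type the commonest lengths of L1 and IAP were 29 and 30 nt, B2 peaked at 28 nt, and B1 was most often 25 nt. The 25 nt of B1 is the shortest length kept, so a shorter commonest length would not be seen. Reads under 25 nt are also left out of the means above.

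The first base was mostly T. In untreated wild type T opened 81.6% of member reads (81.4 to 81.8) and 72.5% of piRNA-like reads under 20 genes. Among piRNA-like reads that match 1 gene the share was 83.3%, so T at base 1 was not particular to the members. By family the share was 92.5% for B2, 79.6% for B1, 75.4% for IAP and 69.5% for L1. L1 split by strand, with 82.7% of antisense and 62.5% of sense reads opening with T. In the Mili knockout T opened 30.8% of member reads (28.7 to 33.1), 32.7% for B2 and 32.6% for L1. Simple repeats stood apart from the other families in wild type too, with T first in 35.4% of 82 reads.

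A at base 10 divided the families the other way. It stood in 60.6% of L1 reads (60.2 to 61.1) and 70.4% of IAP reads (68.6 to 72.1) of untreated wild type, against 8.03% of B2 reads (7.80 to 8.26) and 27.9% of piRNA-like reads under 20 genes. B1 lay between, at 36%. L1 sense reads had A at base 10 in 70.7% of cases and L1 antisense reads in 41.5%. For IAP the antisense strand was higher, 77.2% against 54.8%. The B2 value rests on few 5′ ends: 63, 59 and 58 of the 3349 B2 members begin at bases 46, 48 and 49, and members that share a 5′ end share most of their bases.

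Sense and antisense 5′ ends of L1 overlapped by 10 nt more than by any other length from 1 to 20 nt. For each pair of positions the smaller of both read counts was summed. In untreated wild type the sum at 10 nt was 5401 reads, against a mean of 1588 ± 232 (SD over the other 19 overlaps), which is 16.4 SD above that mean. The ratio of the sum at 10 nt to the mean was 3.40 in untreated wild type, 3.21 after NaIO4, 3.70 and 4.32 in mhen1-/- cells before and after NaIO4, and 2.43 in the immunoprecipitate. IAP gave 445 reads at 10 nt against 135 ± 41.4, and 10 nt led in the 5 libraries other than the Mili knockout. In B1 10 nt led too in untreated wild type, with 226 reads against 75.7 ± 36.1. In B2 it did not: 110 reads against 105 ± 15.8, with the highest sum, 127, at 18 nt. Since the smaller count is summed, the B2 sums are limited by 264 antisense reads, against 55393 sense ones. They therefore cannot show that a 10-nt overlap is absent from B2. The Mili knockout had 1 L1 read and 0 IAP reads at 10 nt, too few to read an overlap from.

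The L1 pair shown above illustrates the overlap. Its sense member begins at base 3321 of the assembled L1 and its antisense member at base 3330. The sense member had 547 reads in untreated wild type, 641 in its NaIO4 library, 2355 in untreated mhen1-/- cells, 121 in their NaIO4 library, 0 in mili-/- cells and 1191 in the immunoprecipitate. The antisense member had 917 reads in untreated wild type, 2117 in its NaIO4 library, 1397 in untreated mhen1-/- cells, 92 in their NaIO4 library, 0 in mili-/- cells and 301 in the immunoprecipitate. The sense member was most abundant in the untreated Hen1 knockout, and both were at 0 in the Mili knockout. The IAP sense member had 49, 196, 142, 16, 0 and 123 reads and its antisense partner 222, 548, 137, 9, 0 and 1328 in the same order of libraries. The antisense one was the more abundant of both in wild type and in the immunoprecipitate.

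Within L1 most reads came from the long open reading frame, which is also most of the assembled L1. This assembly of 4510 nt holds a frame of 1300 codons at bases 10 to 3909 (ORF2, with the reverse transcriptase) followed by the 3′ end. The shares below were not scaled by length. A separate assembly with a frame of 376 codons lay upstream of ORF2 in 43 of the 44 transcripts that hold both and is called ORF1-like. ORF2 in untreated wild type held 34.5% of member reads, the 3′ end 4.04% and the ORF1-like part 0.842%. L1 reads began at more 5′ ends than B2 reads. Of 1236 sense positions with reads in untreated wild type 31 held 50% of the sense reads. Of 1031 antisense positions 46 held 50% of the antisense reads. For B2 sense it was 2 of 117, on a far shorter assembly, and these counts were not scaled by length either. The L1 member with the most reads in untreated wild type begins at base 2993 and is shown with the second antisense member by reads, since the first antisense one is in the pair above; capitals mark bases 1 and 10.
L1 sense A: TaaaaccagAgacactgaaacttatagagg
L1 antisense B: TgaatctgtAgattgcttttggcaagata
L1 sense A had 1251 reads in untreated wild type, 2949 in its NaIO4 library, 307 in untreated mhen1-/- cells, 28 in their NaIO4 library, 0 in mili-/- cells and 1735 in the immunoprecipitate. It was 6.51-fold lower (5.75 to 7.38) in the untreated Hen1 knockout than in untreated wild type. L1 antisense B had 861 reads in untreated wild type, 1515 in its NaIO4 library, 938 in untreated mhen1-/- cells, 39 in their NaIO4 library, 0 in mili-/- cells and 530 in the immunoprecipitate, and its difference between these libraries was smaller, 1.47-fold lower (1.34 to 1.61). The second L1 sense member by wild type reads had 1207, 2387, 710, 34, 0 and 3201 reads in the same order.

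All member reads together made up 1.57% in untreated wild type, 2.49% in its NaIO4 library, 1.68% in untreated mhen1-/- cells, 0.584% in their NaIO4 library, 0.0364% in mili-/- cells and 3.78% in the immunoprecipitate. The immunoprecipitate was highest and the Mili knockout lowest. With NaIO4 the share was 1.58-fold higher (1.57 to 1.59) in wild type and 2.87-fold lower (2.83 to 2.92) in the Hen1 knockout, and the ratio of these ratios was 0.220 (0.216 to 0.224). These values move with the rest of the library: piRNA-like reads under 20 genes were 1.55-fold higher in wild type and 2.55-fold lower in the Hen1 knockout, while microRNAs went from 19.2% to 1.47% of the wild type library with NaIO4. That class includes reads that match no gene, which went from 16.7% to 19.9% in wild type and from 27.1% to 13.7% in the Hen1 knockout. Reads that match 1 gene moved further, from 18.9% to 34.6% in wild type and from 24.5% to 7.14% in the Hen1 knockout. As a share of piRNA-like reads the member ratio came to 1.02 for wild type and 0.889 for mhen1-/- cells. The 10 most abundant sequences of the NaIO4-treated mhen1-/- library held 42.6% of it, and without each library's 10 most abundant sequences the knockout ratio was 0.526. Both directions turned with each distinct sequence counted once (0.846 and 1.22), a measure that moves with depth, and per microRNA read the ratios were 20.6 and 0.994, so that the knockout ratio was near 1.

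The families differed in how NaIO4 moved them. In wild type, treatment left a share that was 1.62-fold higher (1.61 to 1.64) for B2, 1.55-fold higher (1.54 to 1.57) for L1, 1.47-fold higher (1.41 to 1.54) for IAP and 1.06-fold higher (1.01 to 1.11) for B1. Reads of ribosomal protein and Hnrnpa3 genes were 1.80-fold higher (1.71 to 1.90) and those of zinc finger genes 1.96-fold higher (1.76 to 2.19). In the Hen1 knockout B2 was 3.79-fold lower (3.69 to 3.88), IAP 3.35-fold lower (3.0 to 3.73), B1 2.08-fold lower (1.82 to 2.38) and L1 2.01-fold lower (1.97 to 2.06). By strand, L1 antisense was 1.58-fold and L1 sense 2.51-fold lower. B1 sense was 3.33-fold lower (2.77 to 4.01), while B1 antisense was 1.28-fold higher (1.04 to 1.58) on 114 reads. The small antisense fraction of B2 was also higher, by 1.46-fold (1.18 to 1.81) with NaIO4 in the knockout, on 112 reads. Simple repeats were 1.89-fold higher (1.39 to 2.55) there, on 60 reads, and 1.74-fold higher (1.34 to 2.25) in wild type.

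Untreated mhen1-/- cells had a member share of 1.07-fold (1.06 to 1.07) the untreated wild type value, while piRNA-like reads under 20 genes stood at 1.43-fold. The families parted: B2 was 1.23-fold higher (1.21 to 1.24) and IAP 1.19-fold higher (1.13 to 1.24), L1 was 1.10-fold lower (1.09 to 1.11) and B1 2.13-fold lower (2.02 to 2.26). Sense IAP reads were 1.73-fold higher (1.60 to 1.88), while the antisense ones were at 0.947-fold (0.894 to 1.00). The direction for all members rests on B2 and on the scale: without B2 the ratio was 0.917, and as a share of piRNA-like reads it was 0.754.

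In the Mili knockout member reads were 43.2-fold lower (41.2 to 45.3) than in untreated wild type. piRNA-like reads that match 1 gene were 20.3-fold lower and the whole piRNA-like class 3.25-fold lower. Of the 622118 reads of that class in mili-/- cells 564020 matched no gene. Such reads made up 16.7% of the untreated wild type library and 11.7% of the mili-/- one. Reads of microRNAs made up 34% of the mili-/- library and 19.2% of the wild type one, and their part in these ratios was not tested. B2 was 59.7-fold lower (55.1 to 64.7), L1 sense 165-fold lower (138 to 198) and L1 antisense 13.5-fold lower (12.6 to 14.5). IAP kept 3 reads of 4808088, against 2744 in untreated wild type, a ratio of 0.00167 (0.000537 to 0.00517). Simple repeats were lower by less, 2.15-fold lower (1.38 to 3.37). L1 antisense thus held 44.0% of the remaining member reads, up from 13.7%. Its leading sequences had 231, 83 and 52 of its 770 reads, and the first and second of these differ by 1 base. Among members with at least 10 reads in untreated wild type, 290 of 296 L1 antisense ones were at least 2-fold lower, 285 of them at 0. All 467 L1 sense ones were lower by that limit, 457 of them at 0. Over all 29197 piRNA-like sequences with that many reads 88.1% were lower, and 24797 were at 0. The difference in reads between the L1 strands thus came in part from few sequences.

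In the MILI immunoprecipitate member reads were 2.40-fold higher (2.39 to 2.42) than in untreated wild type, against 1.72-fold for piRNA-like reads under 20 genes. B2 was 3.99-fold higher (3.95 to 4.02), and the members without B2 stood at 0.919-fold (0.911 to 0.928). B1 sense was 1.98-fold higher (1.90 to 2.06), IAP 1.56-fold higher (1.5 to 1.62), ribosomal protein and Hnrnpa3 genes 2.61-fold higher (2.49 to 2.74) and zinc finger genes 2.65-fold higher (2.41 to 2.92). L1 sense was 1.29-fold lower (1.28 to 1.31) and L1 antisense 1.94-fold lower (1.90 to 1.98). By sequence, 43.1% of the member reads in the immunoprecipitate and 22.9% in untreated wild type were B2 sense A to D. Without each library's 10 most abundant sequences the member ratio was 1.47, and with each distinct sequence counted once, a measure that moves with depth, it was 0.397.

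Single members were counted when the library in the denominator had at least 10 reads, which 1311 of 32463 had in untreated wild type and 2161 in the untreated Hen1 knockout. At a limit of 2-fold, 216 were higher and 245 lower after NaIO4 in wild type, or 16.5% and 18.7%, against 16.2% and 27.6% of all piRNA-like sequences with that many reads. After NaIO4 in mhen1-/- cells 35 were higher and 1817 lower (1.62% and 84.1%, against 1.64% and 83.1%). Both shares were near the background. In the untreated Hen1 knockout 167 were higher and 594 lower than in wild type (12.7% and 45.3%, against 8.98% and 59.1%). In the Mili knockout 4 were higher, all of them L1 antisense, and 1291 lower (0.305% and 98.5%, against 3.01% and 88.1%). Among immunoprecipitated RNAs 247 were higher and 538 lower (18.8% and 41.0%, against 19.4% and 36.4%). The share of members lower was above the background in mili-/- cells and below it in untreated mhen1-/- cells, and the share higher in the immunoprecipitate was near it. The background includes sequences that match no gene, and none of these differences was tested. Only sequences with reads in the denominator could be counted, so sequences seen only in the other library are left out and lower values are favoured.

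By family the immunoprecipitate gave opposite counts for B2 and L1. Of 301 B2 members 178 were higher and 25 lower by that limit (59.1% and 8.31%), and their median ratio was 2.40. Of 763 L1 members 26 were higher and 424 lower (3.41% and 55.6%), with a median of 0.435. Over all piRNA-like sequences counted 19.4% were higher and 36.4% lower, with a median of 0.791. In the untreated Hen1 knockout 99 B2 members were higher and 73 lower (32.9% and 24.3%, median 1.25). For L1 56 were higher and 367 lower (7.34% and 48.1%, median 0.519). Over all piRNA-like sequences 8.98% were higher and 59.1% lower there (median 0.368), so the share of L1 members lower was below the background. Of 46 B1 members 35 were lower there and 1 was higher (76.1% and 2.17%). In wild type NaIO4 left 18 of these B1 members lower and 5 higher (39.1% and 10.9%), and 39 and 49 of the B2 members (13.0% and 16.3%), against 27.6% lower and 16.2% higher over all piRNA-like sequences, so the share of B2 members higher was near the background.

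B1 reads began at base 62, 64 or 88 of an assembled B1 of 165 nt, in 22%, 22.9% and 24.0% of the sense reads of untreated wild type. The B1 sense A sequence begins at base 64 and had 426 reads in untreated wild type, 465 in its NaIO4 library, 330 in untreated mhen1-/- cells, 17 in their NaIO4 library, 0 in mili-/- cells and 4487 in the immunoprecipitate. It was 3.06-fold higher (2.77 to 3.37) in the immunoprecipitate than in untreated wild type. With NaIO4 in wild type it was 1.29-fold lower (1.13 to 1.47), where B2 sense A was higher. B1 sense B had 209, 225, 207, 7, 0 and 2756 reads and gave 1.30-fold lower for the same NaIO4 comparison. Antisense reads of B1 and B2 were few, 482 and 264 in untreated wild type. The most abundant B2 antisense member there had 14 reads and the most abundant B1 antisense member 15.

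IAP members lay at few places of an assembled IAP piece of 584 nt. Among wild type reads without treatment 28.8% of the antisense reads began at base 389, and 17.7% of the sense reads at base 380, which is the 10-nt partner of it. The next antisense 5′ end, base 122, held 10.7%, and the next sense one, base 216, 7.64%. IAP sense reads numbered 838, 2142, 2323, 162, 1 and 5224 and antisense reads 1906, 3525, 2885, 184, 2 and 9508 in the 6 libraries. Both strands were near or at 0 in mili-/- cells. In the immunoprecipitate IAP antisense was 1.45-fold higher (1.38 to 1.52) and IAP sense 1.81-fold (1.68 to 1.95) of the wild type share. NaIO4 in wild type gave 1.82-fold higher (1.68 to 1.97) for sense and 1.32-fold higher (1.25 to 1.39) for antisense.

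Members from ribosomal protein and Hnrnpa3 genes and from zinc finger genes, genes and not transposons, came almost wholly from the sense strand. The first had 1913 reads in untreated wild type, 4836 in its NaIO4 library, 2332 in untreated mhen1-/- cells, 141 in their NaIO4 library, 39 in mili-/- cells and 17219 in the immunoprecipitate, and T opened 76.0% of them in wild type, with A at base 10 in 42.9%. Zinc finger members had 452, 1247, 692, 47, 6 and 4130 reads in the same order, with T first in 82.1% and A at base 10 in 44.5%. Both groups were higher in the immunoprecipitate and lower in mili-/- cells than in untreated wild type, by 32.2-fold and 49.5-fold for the latter comparison. Of the 39 ribosomal protein and Hnrnpa3 reads left in mili-/- cells none began with T. Unnamed repeats had 3366, 7167, 6044, 331, 62 and 12768 reads, and members of no family 2308, 5933, 4277, 298, 78 and 14388. With NaIO4 unnamed repeats were 1.52-fold higher (1.46 to 1.58) in wild type and 4.06-fold lower (3.64 to 4.54) in the Hen1 knockout, and members of no family 1.83-fold higher (1.74 to 1.92) and 3.19-fold lower (2.84 to 3.59).

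With NaIO4 in the Hen1 knockout ORF2 was 1.91-fold lower (1.87 to 1.96) and the 3′ end 3.35-fold lower (3.03 to 3.71), with the ORF1-like part at 2.47-fold lower (2.05 to 2.96). The members printed here that were higher with NaIO4 in that knockout all lie in ORF2, and without the 20 most abundant of all members that were higher there, chosen after seeing the data, L1 as a whole was 3.21-fold lower. ORF2 antisense had 13939 reads in untreated wild type, 31219 in its NaIO4 library, 25354 in untreated mhen1-/- cells, 3725 in their NaIO4 library, 741 in mili-/- cells and 23524 in the immunoprecipitate, and the 3′ end antisense had 1625, 3170, 1977, 119, 8 and 4235. In the immunoprecipitate ORF2 was 1.51-fold lower (1.49 to 1.53) than in untreated wild type, the 3′ end 0.887-fold (0.858 to 0.916) of it and the ORF1-like part 0.450-fold (0.415 to 0.487).

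A small group of L1 members was higher with NaIO4 in the Hen1 knockout, where the members as a whole were lower. They are shown because they led the Mili knockout or the NaIO4-treated Hen1 knockout; the 3 antisense ones had the most reads of all members in the Mili knockout, and the sense one was chosen after its values were seen. Capitals mark bases 1 and 10.
L1 antisense C: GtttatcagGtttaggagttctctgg
L1 antisense D: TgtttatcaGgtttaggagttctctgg
L1 antisense E: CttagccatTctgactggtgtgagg
L1 sense F: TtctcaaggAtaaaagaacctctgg
L1 antisense C had 156 reads in untreated wild type, 370 in its NaIO4 library, 416 in untreated mhen1-/- cells, 697 in their NaIO4 library, 231 in mili-/- cells and 1 in the immunoprecipitate. It was 7.53-fold higher (6.67 to 8.50) with NaIO4 in the Hen1 knockout and 2.26-fold higher (1.84 to 2.76) in the Mili knockout than in untreated wild type, and nearly absent from the immunoprecipitate. L1 antisense D has 1 more base at its 5′ end and had 26, 101, 94, 229, 83 and 8 reads in the same order, and L1 antisense E had 44, 84, 159, 185, 52 and 0. L1 sense F had 1177 reads in untreated wild type, 2551 in its NaIO4 library, 46 in untreated mhen1-/- cells, 486 in their NaIO4 library, 2 in mili-/- cells and 1605 in the immunoprecipitate. It was 47.5-fold higher (35.1 to 64.2) with NaIO4 in the Hen1 knockout, but unlike the others it was abundant in the immunoprecipitate and had 2 reads in the Mili knockout.

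In all 35 of 2161 members passed the 2-fold limit upward with NaIO4 in the Hen1 knockout. This was 1.62%, near the 1.64% of all piRNA-like sequences counted. Of the 35, 30 were L1, 19 antisense and 11 sense, 2 were B2, 2 IAP and 1 of an unnamed repeat. The 30 were 2.41% of the 1247 L1 members counted, with 3.76% of the antisense and 1.48% of the sense ones higher. The 35 held 19.7% of the member reads of the NaIO4-treated knockout against 0.906% in the untreated knockout, and 37.4% in the Mili knockout. Among them 16 ended in GG (45.7%), as did 5.18% of the 2161 members counted. Some differ by 1 base only, as L1 antisense C and D do, so they are not independent. Over all L1 reads the NaIO4 ratio in the Hen1 knockout was 1.55 for reads ending in G and 0.341, 0.316 and 0.322 for those ending in A, C and T. The 30 L1 members among the 35 are part of these reads, so the value of 1.55 is not separate from their choice. L1 antisense C, D and E and L1 sense F alone gave 697, 229, 185 and 486 of the 3219 L1 reads ending in G with NaIO4 in the knockout. Over piRNA-like reads under 20 genes the ratio was 0.495 for G and 0.358, 0.472 and 0.310 for A, C and T. For B2 it was 0.232 for G and 0.271 for C. Without the 20 of these members that had the most reads, L1 with NaIO4 in the Hen1 knockout was 3.21-fold lower in place of 2.01-fold. In wild type, 8 of the 17 that had at least 10 untreated reads passed the limit upward too, where 16.2% of all piRNA-like sequences did. The 35 were chosen by their NaIO4 values in the knockout, so those values only describe them.

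Of the members that passed the 2-fold limit upward with NaIO4 in wild type, the 3 with the most untreated reads were an L1 sense and a pair of B2 sense sequences, shown with capitals at bases 1 and 10.
L1 sense G: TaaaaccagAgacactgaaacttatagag
B2 sense E: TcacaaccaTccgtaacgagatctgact
B2 sense F: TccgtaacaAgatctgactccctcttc
L1 sense G is L1 sense A without its last base and went from 829 to 2457 reads with NaIO4 in wild type. B2 sense E begins at base 91 of B2, away from the leading ends, and had 296 reads in untreated wild type, 978 in its NaIO4 library, 1816 in untreated mhen1-/- cells, 102 in their NaIO4 library, 0 in mili-/- cells and 3215 in the immunoprecipitate, so it was also 3.84-fold higher (3.39 to 4.34) in the untreated Hen1 knockout. B2 sense F begins at base 100 and was 5.96-fold higher (5.26 to 6.76) in the immunoprecipitate, with 256 reads in untreated wild type and 5260 there. Of the 3 leading members that passed the limit downward, all L1, the first had 142 reads without and 94 with NaIO4 in wild type, the second 92 and 55, and the third 58 and 22.

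The number of genes matched did not order the values evenly. In untreated wild type, sequences matching 20 to 49 genes held 0.720% of the library, those matching 50 to 99 held 0.776% and those matching 100 or more 0.0783%. The immunoprecipitate ratio was 1.48, 3.24 and 2.57, and 2.50 for 10 to 19 genes, 2.17 for 5 to 9, 2.07 for 2 to 4 and 2.09 for 1 gene. B2 sense A to D all match between 86 and 90 genes. Sequences just inside the limit (20 or 21 genes) numbered 2630 and held 0.0608% of the untreated wild type library, and those just outside it (18 or 19 genes) numbered 3690 and held 0.0711%. In the untreated Hen1 knockout the shares were 0.0549% and 0.133%.

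The genes that the most member reads of the immunoprecipitate matched are places where copies lie and not known sources. They were Gm9894 (ENSMUSG00000052909, chromosome 13, 67762714 to 67773451, minus strand), Gm29666 (ENSMUSG00000100967, chromosome 15, 84910438 to 84920038, minus strand), Slc37a1 (ENSMUSG00000024036, chromosome 17, 31286792 to 31350739, plus strand), Rab33b (ENSMUSG00000027739, chromosome 3, 51483920 to 51496232, plus strand) and Qsox1 (ENSMUSG00000033684, chromosome 1, 155776029 to 155812889, minus strand), in GRCm38 coordinates of the whole gene. Each was matched by 59.3 to 64.1% of the member reads of the immunoprecipitate. These shares overlap, since 1 read counts for every gene it matches.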

How the data were processed

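Each file held counts of reads per distinct sequence, deposited by the authors without scaling; Bowtie and mm10 appear per the submitters' processing notes, and adapter trimming is not given in the sources used here. Shares were taken of reads of 18 to 35 nt. Sequences of 25 to 31 nt were matched exactly, on both strands, to GENCODE M21 transcripts (GRCm38), 135655 long transcripts of 49343 genes. Sequences matching a small RNA biotype on either strand were left out (3263 that matched 20 or more genes). Nuclear tRNA and 45S rRNA were not in the reference. Members and lists were chosen with earlier results of these data known.

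No genome or repeat annotation was used. Repeats were assembled from the transcripts by extending frequent 20-mers, from the most abundant unassigned member until under 2% of the reads remained, which gave 22 sequences. Members were assigned within 4 edits. B2 and B1 were named by at least 3 short words of the element, IAP by words added after seeing the data, L1 by its reading frame, and gene families by their leading genes. Position 1 is the first base of the assembled sequence.

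Named sequences were, by rule, the 5 with the most reads in the immunoprecipitate, the 2 leading ones of each family and strand in wild type, 3 at least 2-fold higher or lower with NaIO4 in wild type, and 3 leading the Mili knockout; those over 30 nt are not printed. Intervals are exact binomial for shares and, for ratios, on the log scale from the counts, at 95%. The matching, the assignment and the overlap count were tested on simulated data. The alternatives were other scalings, leaving out abundant sequences, counting distinct sequences once, other gene limits, small RNA rules, edit limits and fold limits. Python 3.11.15, numpy 2.4.6, numba 0.67.0, pandas 2.3.3, scipy 1.17.1, Biopython 1.88 and edlib 1.3.9.post1 were used.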

Additional observations from a re-analysis of the deposited data

Results flagged for a closer look

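NaIO4 moved the share of these members up in wild type and down in the Hen1 knockout, with 1 library of each kind, and the difference was not tested. The ratio of the knockout's NaIO4 ratio to that of wild type was 0.220 for all members, 0.163 for B2, 0.320 for L1, 0.454 for B1 and 0.203 for IAP. For ribosomal protein and Hnrnpa3 genes it was 0.151 and for zinc finger genes 0.155. B1 had a ratio above 1 in wild type by a small margin. The same ratio was 0.253 over piRNA-like sequences under 20 genes and 0.159 over those that match 1 gene.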

How the results depend on the processing

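No paired analysis was possible because every group has 1 library. Of 127 values recomputed under another choice, 21 stayed within the counting interval of the value reported (for counts and scores, within 1.5 times), 8 turned direction and 98 moved further, which the narrow intervals make easy. The causes were not tested. The Mili knockout was below wild type under all alternatives run.

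Ratios are given in the order NaIO4 in wild type, NaIO4 in the Hen1 knockout, the ratio of both, Hen1 knockout, Mili knockout and immunoprecipitate against wild type. Per microRNA read they were 20.6, 0.994, 0.0482, 2.79, 0.0131 and 54.4. As a share of piRNA-like reads they were 1.02, 0.889, 0.871, 0.754, 0.0752 and 1.37. With the 10 leading sequences of each library left out they were 1.53, 0.526, 0.344, 1.03, 0.0271 and 1.47. With each distinct sequence counted once they were 0.846, 1.22, 1.45, 0.681, 0.200 and 0.397. At 10 or more genes they were 1.60, 0.328, 0.205, 1.11, 0.0221 and 2.44. At 50 or more genes they were 1.57, 0.318, 0.202, 1.02, 0.0184 and 3.18. With only sense matches to small RNAs excluding they were 1.57, 0.347, 0.220, 1.05, 0.0233 and 2.37. With the longest transcript of each gene alone they were 1.59, 0.360, 0.227, 1.05, 0.0240 and 2.38. Against 1.58, 0.348, 0.220, 1.07, 0.0231 and 2.40 as reported, the Hen1 knockout ratio turned below 1 as a share of piRNA-like reads, and with distinct sequences counted once each ratio but that of the Mili knockout turned. Without B2 members, an alternative chosen after seeing the data, the ratios other than the third were 1.55, 0.453, 0.917, 0.0291 and 0.919, and without 20 members high in the Hen1 knockout with NaIO4, chosen likewise, the knockout NaIO4 ratio was 0.285 for all members and 0.312 for L1.

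As a share of piRNA-like reads the member shares of the 6 libraries were 3.74%, 3.82%, 2.82%, 2.51%, 0.281% and 5.14%. At 10 or more genes the member shares of the 6 libraries were 2.41%, 3.87%, 2.67%, 0.876%, 0.0532% and 5.88%. At 50 or more genes the member shares of the 6 libraries were 0.854%, 1.34%, 0.868%, 0.276%, 0.0157% and 2.71%. With only sense matches to small RNAs excluding the member shares of the 6 libraries were 1.63%, 2.57%, 1.71%, 0.594%, 0.0381% and 3.88%. With the longest transcript of each gene alone the member shares of the 6 libraries were 1.40%, 2.23%, 1.48%, 0.533%, 0.0336% and 3.34%. With 2 edits fewer B2 held 44.9% and L1 39.4% of wild type member reads. With distinct sequences counted once the 10-nt overlap stood 9.60 SD above the others for L1 and 4.45 for IAP, against 16.4 and 7.49.

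Counts of members higher and lower, in the order NaIO4 in wild type, NaIO4 in the Hen1 knockout, Hen1 knockout, Mili knockout and immunoprecipitate, depended on the limits. At least 50 reads were found for 227 members in untreated wild type and 386 in the untreated Hen1 knockout, so fewer members could be counted. With that limit the counts were 34 and 4, 8 and 347, 38 and 92, 1 and 226, and 92 and 54. No background share is given for the limits in this paragraph. At 4-fold they were 7 and 121, 21 and 1457, 53 and 327, 1 and 1283, and 97 and 271. Per microRNA read they were 1233 and 46, 227 and 1291, 521 and 270, 1 and 1300, and 1217 and 27. The Hen1 knockout with NaIO4 had 2604390 reads of 18 to 35 nt, and 1134 of the 2161 members with at least 10 reads in the untreated knockout were at 0 there. Over all piRNA-like sequences with that many reads 38893 of 65847 were at 0 in the NaIO4-treated knockout. A count of 0 allows 0.000115% of that library.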
